A study of Mus musculus with 6 samples.

Results

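The type I interferon response genes are a set of 46 genes, made up of the 2 chains of the interferon receptor and of genes known to respond when interferon binds it. They were listed by name from the known pathway, and the choice was made with the difference between WT and *SYISL* KO muscle already in view. All 46 were found among the 56262 genes of the count table, and all 46 passed the filter on low counts that left 22071 genes for the fit. RNA-seq was performed on leg muscle of mouse fetuses at E18.5d, with 3 WT and 3 KO samples. The KO fetuses lacked *SYISL*, a long noncoding RNA from within an intron of *Synpo2*. Each genotype was bred from parents of its own genotype, so the dam's genotype and that of the fetus cannot be told apart, and the labels give no treatment for either group. Litter, sex and any pooling of fetuses were not labelled, and p-values measure only the spread between these samples.

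Type I interferons are secreted proteins that signal through a receptor of 2 chains, IFNAR1 and IFNAR2. The receptor's kinases JAK1 and TYK2 phosphorylate STAT proteins, among them STAT2, which join IRF9 and bind the interferon-stimulated response element (ISRE) in front of their target genes. The products of these targets sense foreign RNA and DNA, block viral translation, entry and release, and feed back on the pathway itself. Nearly every cell type can respond, including muscle fibers, endothelium and macrophages.

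Library totals ranged from 82054811 to 102233181 counts, so that 3 counts corresponded to between 0.0284 and 0.0363 counts per 1000000 (CPM). *SYISL* has no symbol in the annotation. Its host gene *Synpo2* measured between 130.8 and 139.0 CPM in WT and between 192.6 and 228.9 CPM in KO, and since the 4 further genes annotated inside it reached at most 2 counts, the table did not show the deletion itself. The markers of skeletal muscle were abundant, with summed levels from 16660 to 18720 CPM in WT and from 35660 to 43310 CPM in KO. WT also carried 11 keratinocyte markers at 16430 to 24560 CPM against 726.4 to 831.9 CPM in KO, and 7 erythroid markers at 3947 to 5191 CPM against 548 to 668.7 CPM. WT replicate 2 was the highest WT sample for 11 of 11 keratinocyte markers. The summed level of 4 Y-linked genes was 0.0242 CPM in WT replicate 2 and 0.0747 CPM in KO replicate 1. It was 166.4 CPM in WT replicate 1, 69.8 CPM in WT replicate 3, and 64.8 and 64.2 CPM in KO replicates 2 and 3. Whether a sample holds RNA of 1 fetus or of several is not labelled. The part of skin, blood and sex in the values below was not tested, and counts without WT replicate 2 and KO replicate 1 are given beside the main count.

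The ISRE is a sequence through which interferon is known to switch on target genes. Promoters with at least 2 matches of its core are shown for members with log2 fold changes of KO over WT from 3.60 (*Ifit1*) to 1.41 (*Bst2*). *Ifnar1*, a receptor gene without the core, is shown beside them. *Ifitm3* (1.01) and *Trim21* (0.92) also held 2 matches and are not printed. The core was also absent from promoters of members that were higher in KO, among them *Ifi44* (2.80) and *Irf7* (2.21). The core searched was GAAA, then any 2 bases, then GAAA, on either strand, in RefSeq promoters of mouse build GRCm38.p6 that span 250 bases before to 50 bases after the annotated start. Each stretch holds 100 bases, is printed 5′ to 3′ on the strand of its gene, and has the core or its reverse complement in capitals, with overlapping matches run together. The stretch of *Ifit1* lies at chr19:34640749-34640848 on the plus strand, that of *Isg15* at chr4:156200836-156200935 on the minus strand, that of *Ddx60* at chr8:61927987-61928086 on the plus strand, that of *Ifit3* at chr19:34583345-34583444 on the plus strand, that of *Bst2* at chr8:71537545-71537644 on the minus strand and that of *Ifnar1* at chr16:91485115-91485214 on the plus strand.
Ifit1: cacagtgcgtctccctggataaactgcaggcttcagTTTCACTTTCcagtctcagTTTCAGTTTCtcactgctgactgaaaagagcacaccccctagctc
Isg15: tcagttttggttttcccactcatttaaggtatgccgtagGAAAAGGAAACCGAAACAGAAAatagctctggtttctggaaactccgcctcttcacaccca
Ddx60: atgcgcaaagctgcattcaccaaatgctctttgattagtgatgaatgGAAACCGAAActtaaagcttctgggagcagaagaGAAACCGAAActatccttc
Ifit3: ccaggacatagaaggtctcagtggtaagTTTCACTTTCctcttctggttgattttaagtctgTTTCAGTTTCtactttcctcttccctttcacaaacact
Bst2: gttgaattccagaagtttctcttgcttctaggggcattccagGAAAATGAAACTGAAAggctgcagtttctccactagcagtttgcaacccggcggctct
Ifnar1: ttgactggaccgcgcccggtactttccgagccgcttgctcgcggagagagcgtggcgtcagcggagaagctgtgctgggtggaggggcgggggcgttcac

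The stretch of *Ifit3b* at chr19:34607741-34607840 on the plus strand had the same letters as that of *Ifit3*. *Isg15* held 3 matches that overlap one another, *Bst2* held 2 overlapping matches, *Ifit1*, *Ddx60* and *Ifit3* each held 2 separate ones, and *Ifnar1* held none.

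Of the 46 members, 35 had a promoter in the RefSeq table, and 15 of these (42.9%) held the ISRE core, against 1079 of 27025 genes (3.99%) with a promoter. At least 2 matches were found in 8 members (22.9%), against 0.266% of all genes. The 15 members with the core were *Bst2*, *Ddx58*, *Ddx60*, *Eif2ak2*, *Ifi203*, *Ifih1*, *Ifit1*, *Ifit3*, *Ifit3b*, *Ifitm3*, *Isg15*, *Rsad2*, *Stat2*, *Trim21* and *Trim30a*. Their median log2 fold change of KO over WT was 1.41, against 0.79 for the 20 members whose promoter lacked it. The 20 include *Ifnar1*, *Ifnar2* and *Isg20*, and members without a promoter entry are in neither group. *Ifit3* and *Ifit3b*, whose promoters are nearly identical, both count among the 15. The core of the gamma-activated sequence (GAS), TTCNNNGAA, which reads the same on both strands, was found in 10 of 35 members (28.6%) and in 9.55% of all genes. The members with this motif had a median log2 fold change of 0.53, against 1.47 for the 25 without. A match is a run of letters and not a measured binding site. Since the members were chosen with the contrast of KO and WT known, these medians describe them and are no test of either motif. *Dhx58*, *Ifi204*, *Ifi27*, *Ifi27l2a*, *Mx1*, *Mx2*, *Parp14*, *Parp9*, *Rtp4*, *Usp18* and *Zbp1* had no entry.

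In KO muscle, 39 of the 46 members were over 1.5-fold higher with an adjusted p under 0.05, by the quasi-likelihood test of edgeR adjusted over all genes by the Benjamini-Hochberg method. The same held for 8.31% of all genes tested. The exonuclease gene *Isg20* was the 1 member that was lower by this rule, which 8.39% of all genes met. The other 6, *Irf1*, *Ifnar1*, *Ifnar2*, *Samhd1*, *Mx1* and *Trim25*, missed a threshold. Since the members were chosen with this contrast known, these counts describe them and are no test of them. Without WT replicate 2, the same 39 members were higher and the same 1 was lower. Without KO replicate 1, 38 were higher and *Stat2* no longer met the fold threshold. The median log2 fold change was 1.28 over the members, against -0.0041 over all genes tested. Without the fold threshold, 42 members were higher (21.9% of all genes) and 1 was lower (23.1%). Over 4-fold higher levels were met by 15 members, and by 0.652% of all genes.

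The summed level of the members was 574.4, 562.7 and 571.6 CPM in the 3 WT samples and 1082, 1061 and 1062 CPM in the 3 KO samples. Samples of a genotype were close to each other, and the genotypes did not overlap. *Ifnar1*, *Ifitm3*, *Samhd1* and *Trim25* made up 41.6% of the WT sum. Taken 1 by 1, every KO sample was above every WT sample for 42 members, which was also the case for 27.3% of all genes, and below for 1 member, against 28.5% of all genes. Bulk RNA does not separate a change in RNA per cell from a change in the number of cells that express a gene.

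**Figure D1:**
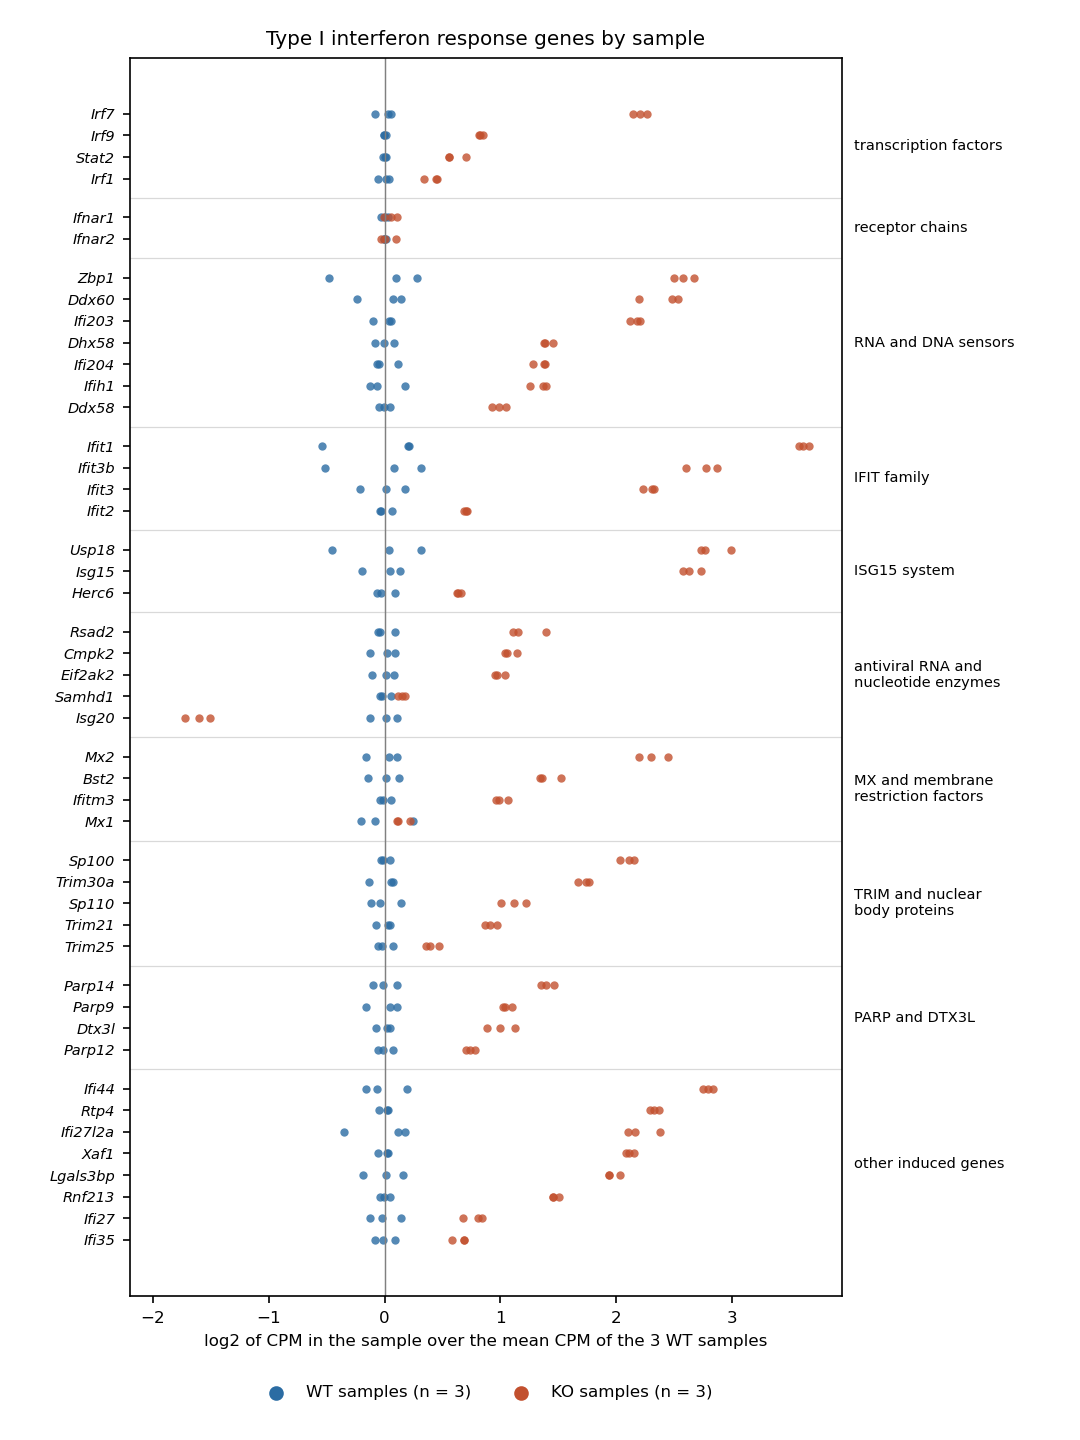
Each of the 46 members by sample, as the log2 of its CPM over the mean CPM of the 3 WT samples, with WT samples in blue and KO samples in red, grouped by role. The KO points of 42 members lie to the right of all their WT points, and those of *Isg20* lie to the left.

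The spread within a genotype was small beside these differences. The median coefficient of variation over the members was 6.31% in WT and 4.07% in KO, against 4.66% and 4.44% over genes with at least 1 CPM. The highest values were 27.5% in WT, for *Ifit3b*, and 12.1% in KO, for *Ddx60*. Counts were thin for 6 members, which had under 100 counts in every WT sample. The lowest was *Ifit3b* with 17 counts in WT replicate 3, and no member had under 135 counts in a KO sample. WT replicate 2 was the lowest WT sample for 19 members, WT replicate 1 for 15 and WT replicate 3 for 12. KO replicate 1 was the highest KO sample for 25 members.

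The receptor is where the response begins, and the levels of both its genes overlapped between the genotypes. *Ifnar1*, for the chain that binds TYK2, measured 66.2, 67.5 and 68.9 CPM in WT and 72.7, 67.1 and 70.3 CPM in KO. *Ifnar2*, for the chain that binds JAK1, measured 31.7, 31.3 and 31.4 CPM in WT and 33.7, 30.9 and 31.5 CPM in KO. For *Ifnar1*, KO replicates 1 and 3 were above all WT samples and KO replicate 2 lay among them, and for *Ifnar2* the KO samples lay on both sides of WT. The log2 fold changes were 0.05 ± 0.04 (SE, n = 3 per genotype) and 0.02 ± 0.05, and both turned to -0.02 and -0.04 when CPM were scaled by library size alone. With macrophage scaling both were called lower, at -0.66 and -0.68, as were 62.6% of all genes. This scaling, described below, shifts all genes by nearly the same amount (median over all genes -0.71).

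The 4 transcription factors of the response were higher in every KO sample than in any WT sample, although *Stat2* and *Irf1* turned below 0 when CPM were scaled to macrophage markers. *Irf7*, the factor that amplifies the response, showed the largest difference of the 4, with 2.80, 2.86 and 2.60 CPM in WT and 13.2, 12.1 and 12.7 CPM in KO. This is a log2 fold change of 2.21 ± 0.07. *Irf9*, the DNA-binding partner of the STAT proteins, measured 20.8, 20.5 and 20.5 CPM in WT and 37.2, 36.4 and 36.3 CPM in KO, or 0.83 ± 0.04. *Stat2* measured 29.0, 28.7 and 29.1 CPM in WT and 47.2, 42.5 and 42.5 CPM in KO. Its 3 KO samples were all above WT, with KO replicate 1 the highest. The log2 fold change of *Stat2* was 0.61 ± 0.05, just past the 1.5-fold threshold, and it dropped to 0.56 without KO replicate 1 and to 0.54 with library size scaling, where the gene no longer met that threshold. *Irf1*, a factor that also answers interferon gamma, measured 10.6, 11.3 and 11.0 CPM in WT and 15.04, 14.9 and 13.9 CPM in KO. The genotypes of *Irf1* did not overlap, but its log2 fold change of 0.41 ± 0.06 stayed under 1.5-fold.

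Sensors of foreign nucleic acid were higher in KO for 7 of 7 members, with log2 fold changes from 0.99 to 2.57. *Zbp1*, a sensor of left-handed nucleic acids that can start cell death, measured 0.613, 0.363 and 0.540 CPM in WT and 3.22, 2.84 and 3.002 CPM in KO. *Ddx60*, a helicase of the RNA-sensing machinery whose promoter is printed above, measured 0.676, 0.545 and 0.711 CPM in WT and 3.60, 2.95 and 3.72 CPM in KO. Both genes were at low levels in every WT sample and clear of them in every KO sample. The log2 fold changes were 2.57 ± 0.16 for *Zbp1* and 2.40 ± 0.14 for *Ddx60*. The RIG-I-like receptors followed with smaller differences, at 0.99 for *Ddx58* (RIG-I), 1.34 for *Ifih1* (MDA5) and 1.403 for *Dhx58* (LGP2). Of the neighbouring *Ifi200* family genes on chromosome 1, *Ifi203* showed a log2 fold change of 2.17 and *Ifi204* of 1.35.

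The IFIT proteins bind viral RNA and hold back its translation, and the 4 members of this family lie in 1 cluster on chromosome 19. *Ifit1* showed the largest difference of all members, with 0.771, 0.460 and 0.777 CPM in WT and 8.45, 7.996 and 8.16 CPM in KO. Its KO samples were nearly equal and lay far above the WT samples, of which WT replicate 2 was the lowest. The difference amounted to 12.1-fold, a log2 fold change of 3.60 ± 0.15 from 38 to 82 counts per WT sample and 762 to 794 counts per KO sample. *Ifit3* measured 1.30, 0.992 and 1.17 CPM in WT and 5.70, 5.41 and 5.77 CPM in KO, or 2.28 ± 0.11. *Ifit2*, at the start of the cluster, had the highest WT level of the family, 15.9 CPM, and the smallest log2 fold change, 0.70, which fell below 0 when CPM were scaled to macrophage markers.

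*Ifit3b* had a log2 fold change of 2.76, but its counts are uncertain because of its neighbour. The longest transcripts of *Ifit3* and *Ifit3b* were identical at 1663 of 1697 aligned bases (98%), and their promoters at 258 of 260 (99.2%). Stretches of 150 bases, the read length, were found unchanged in the other transcript for 18.5% of positions in *Ifit3* and 16% in *Ifit3b*. A single read within such a stretch fits both genes, and its mate may still place the pair. No such stretch was shared among *Ifit1*, *Ifit2* and *Ifit3*, or within the pairs *Mx1* and *Mx2*, *Ifi203* and *Ifi204*, and *Ifi27* and *Ifi27l2a*.

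*Isg15* encodes a ubiquitin-like protein that is joined to other proteins during the response. It measured 1.12, 1.05 and 0.891 CPM in WT and 6.79, 6.10 and 6.31 CPM in KO. The KO samples were all clear of WT, with a log2 fold change of 2.65 ± 0.10. *Usp18*, the protease that removes ISG15 and restrains the receptor, measured 0.697, 0.496 and 0.843 CPM in WT and 5.39, 4.51 and 4.61 CPM in KO, or 2.81 ± 0.16. *Herc6*, the main ligase that attaches ISG15 in mice, averaged 4.51 ± 0.26 CPM (SD, n = 3) in WT against 7.03 ± 0.096 CPM in the KO samples. The genotypes of *Herc6* did not overlap either, but its log2 fold change of 0.64 was near the threshold, which it missed with library size scaling, and its sign turned with macrophage scaling.

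The enzymes that act on RNA and nucleotides did not move as 1 group. *Isg20*, a 3′ to 5′ exonuclease that degrades viral RNA, ran against the other members, with 5.58, 5.22 and 4.74 CPM in WT and 1.57, 1.71 and 1.82 CPM in KO. Every KO sample was below every WT sample, and *Isg20* fell by 1.61 on the log2 scale (SE 0.098), or 3.04-fold lower in KO. *Rsad2* (viperin), which makes a chain-terminating nucleotide, and its neighbour *Cmpk2*, a nucleotide kinase 12.8 kb away on chromosome 12, were higher in KO, at 1.22 and 1.08. *Eif2ak2*, the RNA-activated kinase PKR that halts translation, was also higher, at 0.99. With macrophage scaling all 3 lost their calls, at 0.52, 0.37 and 0.28. *Samhd1*, which depletes nucleotides, was abundant in both genotypes, at 61.3 ± 2.0 and 67.9 ± 1.5 CPM (SD, n = 3), a log2 fold change of 0.15.

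Of the membrane and MX restriction factors, *Mx1* and *Mx2* differed although their genes lie 72.4 kb apart on chromosome 16. Both encode dynamin-like GTPases, and *Mx2* is annotated as a polymorphic pseudogene. *Mx2* measured 0.687, 0.653 and 0.568 CPM in WT and 3.46, 3.13 and 2.91 CPM in KO. *Mx1* measured 1.78, 2.42 and 1.93 CPM in WT and 2.38, 2.203 and 2.21 CPM in KO. The genotypes were far apart for *Mx2* and overlapped for *Mx1*, with log2 fold changes of 2.32 ± 0.12 and 0.15 ± 0.13. *Bst2* (tetherin), which holds budding virus at the cell surface, averaged 11.3 ± 1.1 CPM (SD, n = 3) in WT against 30.1 ± 2.1 CPM in the KO samples, a log2 fold change of 1.41. *Ifitm3*, which blocks fusion of virus with the endosome, went from 66.6 ± 2.2 to 133.7 ± 5.2 CPM, at 1.01.

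TRIM proteins are ubiquitin ligases, and SP100 and SP110 belong to nuclear bodies. *Sp100* had the largest log2 fold change among these 5 members, 2.10, and its neighbour *Sp110* had 1.12. *Trim30a* followed with 1.73 and *Trim21*, the cytosolic antibody receptor, with 0.92. *Trim25*, which acts on RIG-I, averaged 41.6 ± 1.9 CPM (SD, n = 3) in WT against 55.1 ± 2.2 CPM in the KO samples. No WT sample of *Trim25* reached a KO sample, but the log2 fold change of 0.41 stayed under 1.5-fold. All 4 members of the PARP group, enzymes of ADP-ribosylation and their partner, were higher in KO, at 1.399 for *Parp14*, 1.06 for *Parp9*, 1.004 for *Dtx3l* and 0.74 for *Parp12*. Under macrophage scaling *Parp9*, *Parp12* and *Dtx3l* lost their calls, and under endothelium scaling *Parp12* did. *Dtx3l* and *Parp9* share 458 exon bases on opposite strands, and the strand setting of the counting is not given in the sources used here.

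The 8 remaining members were all higher in KO, with a median log2 fold change of 2.04. *Ifi44*, an interferon-induced protein of the cytoplasm, measured 1.34, 1.61 and 1.26 CPM in WT and 9.99, 9.71 and 9.42 CPM in KO, or 2.80 ± 0.096. *Rtp4*, a receptor-transporting protein that can bind viral RNA, measured 4.49, 4.72 and 4.69 CPM in WT and 22.7, 23.1 and 23.9 CPM in KO. The spread of *Rtp4* was 2.70% of the mean in WT and 2.58% in KO, around a log2 fold change of 2.33 ± 0.06, and 13.9% of its exon bases are shared with another annotated gene. *Ifi27l2a*, a small interferon-induced membrane protein, measured 2.60, 1.88 and 2.71 CPM in WT and 12.4, 10.7 and 10.3 CPM in KO, or 2.21 ± 0.13. Its neighbour *Ifi27*, 1.93 kb away on chromosome 12, had a log2 fold change of 0.77. *Xaf1*, a promoter of apoptosis, was at 2.11, the secreted glycoprotein gene *Lgals3bp* at 1.97, the giant ubiquitin ligase gene *Rnf213* at 1.47 and *Ifi35* at 0.65. *Ifi35* lost its call with library size scaling and turned below 0 with macrophage scaling.

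Levels of different genes were compared per kilobase of exon. *Ifitm3* was the most abundant member by this measure, at 98.2 CPM per kb in WT and 197.2 CPM per kb in KO. *Ifi27*, *Bst2* and *Ifnar1* followed in WT, at 12.6, 12.5 and 11.4 CPM per kb. In KO *Bst2* reached 33.3 CPM per kb, *Ifi27l2a* 24.1, *Lgals3bp* 22.6 and *Ifi27* 21.6, while *Ifnar1* stood at 11.8. The largest fold changes belonged to genes of low level. *Ddx60* went from 0.074 to 0.394 CPM per kb, *Ifit3b* from 0.115 to 0.773 and *Ifit1* from 0.252 to 3.09. By CPM, the 9 members under 2 CPM in WT had a median log2 fold change of 2.65 (2.28 to 3.60). The 20 members between 2 and 10 CPM had 1.34 (-1.61 to 2.33), and the 17 members at 10 CPM or more had 0.77 (0.02 to 1.97). The WT level enters both sides of this comparison, which is therefore given as a description only.

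**Figure D2:**
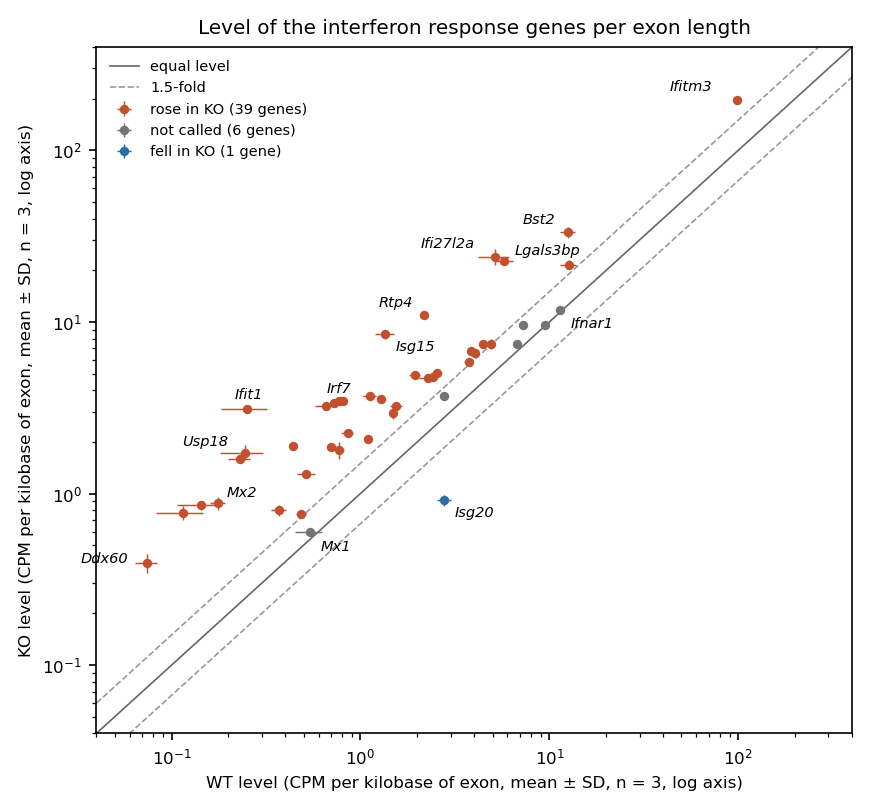
Level of each member in KO against WT, in CPM per kilobase of exon on log axes, as mean ± SD of 3 samples, with the line of equal level and dashed lines at 1.5-fold. *Ifitm3* lies at the top right, the 39 members that passed the threshold lie above the upper dashed line, and *Isg20* is the single point below the lower one.

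The rest of the pathway was examined through a list of 158 further gene names, of which 153 were found in the annotation and 127 passed the filter. In KO, 68 of the 127 rose (8.31% of all genes) and 2 fell (8.39%) by the same test and thresholds. The median log2 fold change of the 127 was 0.65. The same shares of all genes stand beside the counts of rises and falls in the pathway and marker lists below. When CPM were scaled to macrophage markers, 30 of the 127 were higher and 23 lower, against 1.77% and 62.6% of all genes. With endothelium scaling 59 were higher and 2 lower, against 4.97% and 12.8% of all genes. Of 21 interferon genes, none passed the filter and 11 had no count in any sample. The 10 with any count were *Ifnb1*, *Ifna7*, *Ifna12*, *Ifna13*, *Ifnab*, *Ifnk*, *Ifne*, *Ifnz*, *Ifng* and *Ifnl2*, and the highest was *Ifnab* with 6 counts in KO replicate 3. The WT samples held 7, 8 and 5 of these counts in sum and the KO samples 10, 7 and 16, too few for a test. For *Ifnz* the WT samples held 1, 2 and 0 counts and each KO sample held 4, a single-digit difference that was not tested.

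Most of the 17 genes of signalling did not pass the thresholds, with a median log2 fold change of 0.15, and under macrophage scaling none was higher and 6 were lower, beside 62.6% of all genes lower. The kinase genes *Jak1* (0.10 ± 0.04, adjusted p = 0.0749) and *Tyk2* (0.15 ± 0.04, adjusted p = 0.0235) stayed under 1.5-fold in edgeR. *Ifnlr1*, the receptor of type III interferon, fell by 1.20 on the log2 scale, from 2.22, 3.28 and 2.79 CPM in WT to 1.31, 1.14 and 1.15 CPM in KO (adjusted p = 0.00018, edgeR). Its WT samples stood in the same order as their summed keratinocyte markers (16430, 24560 and 18360 CPM), which were also lower in KO. The part of skin RNA in this fall was not tested. Of 17 sensing genes, 4 rose and none fell, while under macrophage scaling none was higher and 9 were lower, beside 62.6% of all genes lower. These were all Toll-like receptors of endosomes that bind nucleic acids, with log2 fold changes of 1.01 for *Tlr8*, 0.88 for *Tlr7*, 0.85 for *Tlr9* and 0.77 for *Tlr3*. The adapters and cytosolic sensors of this list did not pass, among them *Mavs* at 0.24, *Tmem173* (STING) at 0.15 and *Cgas* at 0.05. Other cytosolic sensors, such as *Ddx58* and *Ifih1*, were placed among the members and were higher in KO. *Trex1* was listed at 0 in all samples, and all of its exon bases are shared with *Atrip*.

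The OAS family, enzymes that answer double-stranded RNA, rose as a whole, with 9 of 9 genes past the thresholds (8.31% of all genes). Its median log2 fold change was 2.23. Under macrophage scaling, 7 of these 9 were higher (1.77% of all genes) and 1 had turned below 0. *Oasl2* showed the largest difference of the family, with 3.98, 3.70 and 3.72 CPM in WT and 33.8, 32.0 and 31.9 CPM in KO. The KO samples of *Oasl2* were all far above WT, at a log2 fold change of 3.10 ± 0.06 (adjusted p = 7.35e-09, edgeR). *Oasl1* followed with 2.77 ± 0.16 and *Oas3* with 2.64 ± 0.16. Of 16 interferon-inducible GTPases, which attack the vacuoles of intracellular pathogens, 14 rose (8.31% of all genes) and 2 did not pass. Under macrophage scaling 11 of the 16 were higher (1.77% of all genes) and 2 had changed sign. *Iigp1* had a log2 fold change of 2.32 ± 0.11, *Gbp3* of 1.995 ± 0.09 and *Gbp5* of 1.81 ± 0.12.

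Of 14 genes for MHC class I and the loading of its peptides, 8 rose (8.31% of all genes) and 6 did not pass, with a median of 0.63. Under macrophage scaling 8 of the 14 changed sign. With that scaling 1 was called higher and 1 lower, beside 1.77% and 62.6% of all genes. *Psmb9* (1.46 ± 0.15) and *Psmb8* (1.13 ± 0.12), subunits of the immunoproteasome, and *H2-Q4* (1.02 ± 0.06) showed the largest log2 fold changes. Among 54 other induced genes, 32 rose and 1 fell. Under macrophage scaling 11 of the 54 were higher and 7 lower, beside 1.77% and 62.6% of all genes. The largest were *Phf11d* (2.45 ± 0.10), *Ifi211* (2.04 ± 0.14) and *Phf11b* (1.90 ± 0.18), by the rule that a named gene averaged at least 1 CPM. *Ifi30*, a lysosomal thiol reductase of antigen processing, fell by 0.62 on the log2 scale (adjusted p = 4.73e-05, edgeR). It was named because it was the other gene on the list that fell, after its value was seen.

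Macrophages respond strongly to interferon and are few in muscle, and most of their markers were also higher in KO. Of 13 macrophage markers, 9 rose and none fell, and none was at 0 in any sample. Their summed level was 367, 369.8 and 385.4 CPM in WT and 650.6, 592.4 and 591 CPM in KO. The genotypes did not overlap, and the median log2 fold change of the list was 0.72. *Cd163*, a scavenger receptor of resident macrophages, showed the largest difference, from 6.92, 8.06 and 7.66 CPM in WT to 29.1, 26.9 and 28.8 CPM in KO, or 1.91 ± 0.07. *Cd68* (0.49), *Csf1r* (0.35), *Mertk* (0.20) and *Cx3cr1* (-0.04) did not pass. Of the members, 35 had a log2 fold change above the median of this list and 16 above that of *Cd163*.

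CPM were also scaled so that the summed counts of the 13 macrophage markers were level between the samples. The most abundant markers weigh most in this sum. These were *Mrc1* (mean 83.3 CPM in WT, 156.9 CPM in KO) and *Lyve1* (59.2 CPM in WT, 110.9 CPM in KO). Single markers still differed, with 1 called higher and 1 lower in KO, and 5 of the 13 had changed sign. With this scaling, 23 members remained higher in KO (1.77% of all genes) and 3 were lower (62.6% of all genes), namely *Ifnar1*, *Ifnar2* and *Isg20*. The median log2 fold change of the members was then 0.58, and that of all genes -0.71. The scaling sets 1 factor per sample, so all genes shift by nearly the same amount. Turned signs and lost calls therefore follow mainly from the log2 fold changes already given, and are no separate test. The members that stayed higher with this scaling were among the 39, and the 16 that lost their call were *Cmpk2*, *Ddx58*, *Dtx3l*, *Eif2ak2*, *Herc6*, *Ifi27*, *Ifi35*, *Ifit2*, *Ifitm3*, *Irf9*, *Parp12*, *Parp9*, *Rsad2*, *Sp110*, *Stat2* and *Trim21*. The sign turned for 10 members, *Herc6*, *Ifi35*, *Ifit2*, *Ifnar1*, *Ifnar2*, *Irf1*, *Mx1*, *Samhd1*, *Stat2* and *Trim25*. Scaled to 9 endothelium markers, 33 members were higher (4.97%) and 1 was lower (12.8%), with the calls of *Herc6*, *Ifi27*, *Ifi35*, *Ifit2*, *Parp12* and *Stat2* lost, and the median of all genes was -0.21. Over all genes, 1835 were higher and 1852 lower in the fit reported, against 391 and 13824 with macrophage scaling and 1098 and 2836 with endothelium scaling. Both scalings were chosen after the data were seen. How much of the members' difference came with macrophage RNA was not tested.

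The skeletal muscle list was also higher in KO, with 6 of 8 markers past the thresholds and a median log2 fold change of 1.17. The part of muscle RNA in the members' values was not tested. No endothelium marker of 9 and no fibroblast marker of 7 passed the thresholds. Every KO sample was nevertheless above every WT sample for 8 of the 9 and 7 of the 7, against 27.3% of all genes. Summed endothelium levels were 755.1 to 787 CPM in WT and 865.8 to 908.6 CPM in KO. Summed fibroblast levels were 40560 to 43600 CPM in WT and 48620 to 50590 CPM in KO. Under macrophage scaling 2 endothelium markers were lower, beside 62.6% of all genes. Of 6 lymphocyte markers tested, 2 rose and 2 fell, with summed levels of 5.92 to 6.29 CPM in WT and 10.4 to 11.3 CPM in KO, most of it from *Cd3e* and *Cd4*. *Cd8a*, *Ms4a1* and *Ncr1* did not pass the filter. Plasmacytoid dendritic cells make much of the body's type I interferon. Of the 5 markers listed for them 1 rose and 2 fell, with a median log2 fold change of -0.03. *Siglech*, which fell, was at 0.264, 0.230 and 0.294 CPM in WT and 0.181, 0.168 and 0.134 CPM in KO. These values rest on only 13 to 31 counts per sample, and the other marker that fell, *Klk1*, on 9 to 42. The riser, *Cox6a2*, is also a gene of muscle. Of 7 neutrophil markers tested, 2 rose and none fell, and *S100a8* and *S100a9* overlapped between the genotypes.

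**Figure D3:**
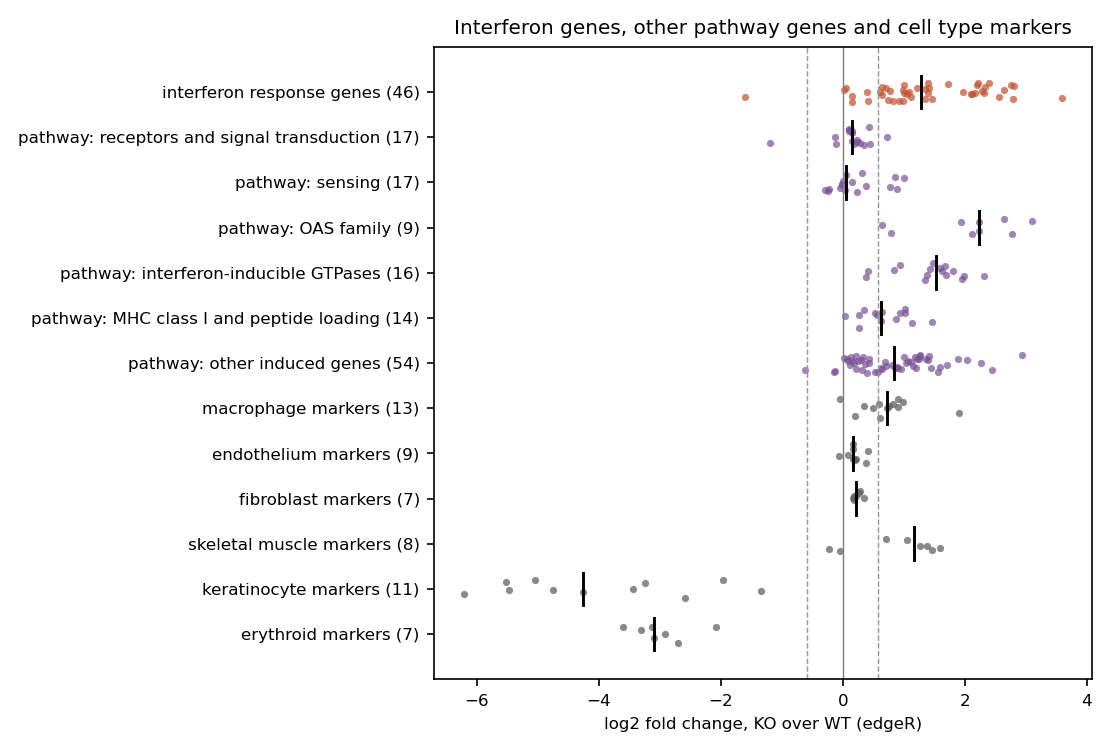
Log2 fold change of KO over WT for each gene of the 46 members, of the other pathway lists and of cell type markers, with the number of genes tested in brackets, a black bar at each median and dashed lines at 1.5-fold. The medians stand at 1.28 for the members, 2.23 for the OAS family, 0.15 for receptors and signalling and 0.72 for macrophage markers, while keratinocyte and erythroid markers lie below -1. With macrophage scaling the median of receptors and signalling turns to -0.56.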

How the data were processed

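The authors trimmed 150 bp paired-end reads with Trim Galore 0.6.6, mapped them to mm10 with HISAT2 2.2.1 and counted them per gene with featureCounts 2.0.1. The deposited values are raw counts with no normalization. The annotation and whether reads or pairs were counted are not given in the sources used here. Symbols and exon lengths came from GENCODE M21, which held 55227 of the 56262 gene IDs. Genes were filtered with filterByExpr, scaled by TMM and tested on genotype with edgeR 4.0.16 (R 4.3.3) in 3 WT and 3 KO samples, with Benjamini-Hochberg adjustment over 22071 genes. The script was tested on simulated data. CPM use the TMM-scaled library sizes. The limit of 3 counts covers counting error only. The members, lists and tests were chosen with earlier results of these data known. Per-sample values were given for the receptor chains, the 4 transcription factors, the 10 other members with the largest absolute log2 fold change at a mean of at least 1 CPM and any member that passed in the opposite direction. Of the pathway, *Jak1*, *Tyk2*, ligands with a count and up to 3 called genes per list with a mean of at least 1 CPM were named, and 1 further gene of that rule is not reported here. *Mx1*, *Cd163*, *Siglech* and *Ifi30* were added after their values were seen. Alternatives were DESeq2 1.42.0, voom with limma 3.58.1, other scalings, filters and thresholds, and leaving out each sample. Replicate numbers did not pair the samples. Protein sequences were not used here, and paralogs were compared by transcript. No 2 samples of a genotype agreed within sampling noise.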

Additional observations from a re-analysis of the deposited data

How the results depend on the processing

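The members called higher numbered 39 and those called lower 1 in most of the alternatives planned, among them DESeq2, limma-voom, no filter, at least 10 counts in every sample and size factors of DESeq2. Library size scaling gave 36 higher, fold 2 gave 29 and no fold threshold 42. Leaving out 1 sample gave 38 to 39, with *Stat2* lost without KO replicate 1. The median log2 fold change of the members moved to 1.21 with library size scaling and 1.35 with upper-quartile factors, and ranged from 1.23 to 1.32 with 1 sample left out. With library size scaling *Ifnar1* turned to -0.016 and *Ifnar2* to -0.044, and with 1 sample left out *Ifnar2* ranged from -0.0093 (without KO replicate 1) to 0.049. Scalings to cell type markers, chosen after the data were seen, moved more. Each of them shifts all genes by nearly the same amount. With macrophage markers 23 members were higher and 3 lower, their median was 0.58, pathway genes were 30 higher and 23 lower, all genes 391 higher and 13824 lower, *Stat2* turned to -0.10, *Irf1* to -0.29, *Ifnar1* to -0.66 and *Ifnar2* to -0.68. With endothelium markers the median was 1.07, all genes were 1098 higher and 2836 lower, *Ifnar1* turned to -0.15 and *Ifnar2* to -0.18. Pathway genes called lower numbered 1 with upper-quartile factors and with a fold threshold of 2, 8 with none, and 1 to 2 with 1 sample left out. Over all genes, no fold threshold gave 4838 higher and 5098 lower, and a threshold of 2 gave 774 higher. The replicate numbers did not pair the samples, with correlations of the deviations of -0.2, -0.134 and 0.0472, and a fit with the replicate block called 1744 genes higher and 1777 lower, with 39 and 1 among the members and 68 and 2 among the pathway genes. Depth limits the values of members with few WT counts and of the interferon genes. The cause of these shifts was not tested.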
